A study of Mus musculus with 6 samples.

Results

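Of the 37991 mouse genes counted in each of 6 liver RNA sequencing libraries, 9 encode the receptors described here: the estrogen receptor alpha gene Esr1, the glucocorticoid receptor gene Nr3c1, the thyroid hormone receptor genes Thra and Thrb, the pregnane X receptor (PXR) gene Nr1i2, the constitutive androstane receptor (CAR) gene Nr1i3, the retinoid X receptor alpha gene Rxra, the retinoic acid receptor alpha gene Rara and the vitamin D receptor gene Vdr. They were chosen by name as the receptors for steroids, thyroid hormone, retinoids and foreign compounds. No cutoff on a measured value was used, but earlier results of these data were known. All 9 were found by their Ensembl IDs, and 8 passed the filter on low counts, which left 12631 genes for testing. Vdr did not pass. The genes lie on chromosome 10 (Esr1, ENSMUSG00000019768), chromosome 18 (Nr3c1, ENSMUSG00000024431), chromosome 11 (Thra, ENSMUSG00000058756, and Rara, ENSMUSG00000037992), chromosome 14 (Thrb, ENSMUSG00000021779), chromosome 16 (Nr1i2, ENSMUSG00000022809), chromosome 1 (Nr1i3, ENSMUSG00000005677), chromosome 2 (Rxra, ENSMUSG00000015846) and chromosome 15 (Vdr, ENSMUSG00000022479). The livers came from FVB mice aged 84 days: 3 had the genotype Ing5 +/+ (WT) and 3 the genotype Ing5 MommeD48/+ (Het), with 1 wild-type and 1 mutant allele of Ing5. Ing5 encodes a subunit of histone acetyltransferase complexes, and the MommeD mutants were isolated in mice as modifiers of transgene silencing. The comparison asked what heterozygosity for the allele does to liver transcripts.

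Library totals ran from 19840541 to 22041117 counts. The labels number the livers without stating whether each is from its own mouse. P-values therefore reflect the spread between these samples alone, and that spread may be technical. Ing5 itself had 8.77, 10.4 and 9.82 CPM (each count scaled to a common library size) in the WT livers and 9.23, 9.99 and 8.79 CPM in the Het livers. These values overlapped, so the level of Ing5 RNA did not separate the genotypes. All 6 livers carried Y-linked transcripts (Ddx3y, 1644 to 1956 counts) and almost no Xist (1 to 6 counts), so sex did not differ between the genotypes by these markers.

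Nuclear receptors are transcription factors that are switched by small fat-soluble ligands. The glucocorticoid and estrogen receptors bind DNA mainly as homodimers and are held ready by HSP90 chaperones, whereas the thyroid hormone, retinoic acid and vitamin D receptors, PXR and CAR bind as heterodimers with a retinoid X receptor. In hepatocytes PXR and CAR induce cytochrome P450 and transporter genes in response to drugs and bile acids, the glucocorticoid receptor drives gluconeogenesis, and thyroid hormone receptor beta mediates most thyroid hormone action on lipid metabolism.

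Promoter sequences from RefSeq (GRCm38.p6, windows of 300 bases that end shortly after an annotated start) were used for 7 of the 9 genes, with 13 promoters in all. They are shown for the 5 genes on which the levels and comparisons below mainly turn and in which a short binding motif was found. Capitals mark the motif. AGGTCA, a hexamer bound by many nuclear receptors, is marked in Rxra, Rara and Thrb. AGAACA, a hexamer bound by the glucocorticoid receptor, is marked in Nr1i2. CACGTG, the E-box bound by clock and other basic helix-loop-helix factors, is marked in Nr1i3. Both strands were searched, so AGGTCA can appear as TGACCT. Each of the listed sequences is written from 5′ to 3′ on the strand of its gene.
Rxra, chr2:27709042-27709341, plus strand: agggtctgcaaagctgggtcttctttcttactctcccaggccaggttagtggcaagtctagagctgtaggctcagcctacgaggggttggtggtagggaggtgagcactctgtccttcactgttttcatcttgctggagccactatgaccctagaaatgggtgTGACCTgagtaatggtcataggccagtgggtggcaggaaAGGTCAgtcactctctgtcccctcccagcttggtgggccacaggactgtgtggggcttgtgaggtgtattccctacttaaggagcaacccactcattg
Rara, chr11:98964622-98964921, plus strand: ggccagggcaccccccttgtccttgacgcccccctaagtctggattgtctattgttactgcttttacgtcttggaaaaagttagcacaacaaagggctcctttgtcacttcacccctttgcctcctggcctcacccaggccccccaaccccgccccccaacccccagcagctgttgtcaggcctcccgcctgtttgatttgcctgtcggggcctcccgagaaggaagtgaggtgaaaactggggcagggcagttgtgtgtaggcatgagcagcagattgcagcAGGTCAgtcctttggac
Thrb, chr14:17660710-17661009, plus strand: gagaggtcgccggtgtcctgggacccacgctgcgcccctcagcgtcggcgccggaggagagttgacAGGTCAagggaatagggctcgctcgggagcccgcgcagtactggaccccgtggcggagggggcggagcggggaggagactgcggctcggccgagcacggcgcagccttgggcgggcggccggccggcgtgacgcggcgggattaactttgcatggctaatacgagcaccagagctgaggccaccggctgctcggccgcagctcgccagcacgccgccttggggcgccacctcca
Nr1i2, chr16:38294775-38295074, minus strand: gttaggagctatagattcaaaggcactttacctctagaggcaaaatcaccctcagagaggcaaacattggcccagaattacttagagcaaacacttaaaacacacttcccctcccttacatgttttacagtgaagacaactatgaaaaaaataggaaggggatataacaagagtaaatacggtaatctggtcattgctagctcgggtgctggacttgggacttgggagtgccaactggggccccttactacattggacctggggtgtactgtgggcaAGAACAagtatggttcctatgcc
Nr1i3, chr1:171213720-171214019, plus strand: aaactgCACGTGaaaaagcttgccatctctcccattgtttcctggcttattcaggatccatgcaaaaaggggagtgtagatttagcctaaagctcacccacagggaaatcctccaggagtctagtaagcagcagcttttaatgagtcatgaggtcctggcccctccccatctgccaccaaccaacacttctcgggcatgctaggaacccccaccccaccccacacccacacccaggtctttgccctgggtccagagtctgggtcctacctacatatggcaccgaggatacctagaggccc

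The AGGTCA hexamer occurred in 3 of the 13 promoters, against 16.3% of 32851 mouse promoters of the same length. No promoter of Nr3c1 or Thra was among the 13, so the motif counts do not describe these genes. Chromosome 18, on which Nr3c1 lies, was left out when the 13 were chosen, but no chromosome was left out of the 32851. In Rxra it occurred once on each strand, 33 bases apart. AGAACA occurred in 2 of the 13, against 19.0% of all promoters, and CACGTG in 4 of the 13, against 7.15% of all, where 2 of the 4 were overlapping windows of Rara. These matches are letters in a window, not measured binding, and the counts per gene do not tell which of several starts was used in these livers.

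The 9 receptors covered nearly the whole range of nuclear receptor levels in liver. Levels between genes are given as CPM per kilobase of exon (exon length from GENCODE M21), as the mean ± SD of all 6 livers. Nr1i3, a hepatocyte sensor of foreign compounds, was the most abundant of the 9 at 107 ± 16.1 CPM per kb, and Rxra, the shared heterodimer partner, followed at 71.2 ± 8.73. Among 49 nuclear receptor genes in the files, only Hnf4a, a determinant of hepatocyte identity, had a higher mean than Nr1i3, at 119 ± 15.5 CPM per kb. Their per-liver ranges overlapped (94.7 to 138 for Hnf4a, 87.6 to 132.5 for Nr1i3). In WT replicate 3 and Het replicate 1 the level of Nr1i3 was above that of Hnf4a. Nr1i3 lay above 96.7% and Rxra above 95.4% of the tested genes with an exon length.

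Nr1i2 came next, at 28.0 ± 3.07 CPM per kb, before Nr3c1, at 15.4 ± 1.40. Thrb had 6.41 ± 0.615 and Rara 3.89 ± 0.197 CPM per kb, and the remaining genes were Esr1 with 1.997 ± 0.534, Thra with 1.65 ± 0.120 and Vdr with 0.00675 ± 0.0108. Each gene's lowest liver was above the next gene's highest liver, except that Esr1 (1.56 to 2.72 CPM per kb) and Thra (1.503 to 1.79) overlapped. The order was the same per kilobase of coding sequence, except that Esr1, which has the longest exon sequence of the 9 (13661 bases), moved above Rara. Of the 49 receptors, 38 were tested and 7 had 0 counts in every library: Esr2, Pgr, Rorb, Nr2e1, Nr2e3, Nr5a1 and Nr0b1.

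**Figure D1:**
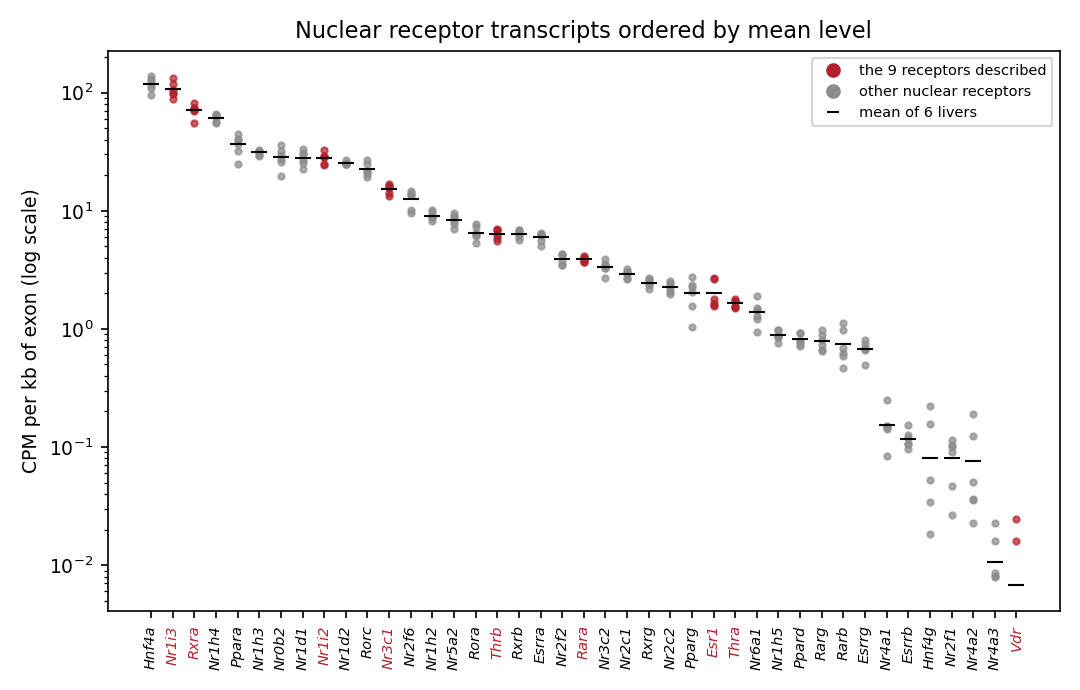
Level of nuclear receptor genes with at least 1 count, in CPM per kilobase of exon on a log scale, with 1 point per liver above 0 and a bar at the mean of 6 livers. The 9 receptors described (red) run from Nr1i3, at 107 CPM per kb, to Vdr, at 0.00675.

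Nr1i3 contributed most of the transcripts of the RXR partners among the 9. Summed per kilobase, Nr1i2, Nr1i3, Thra, Thrb, Rara and Vdr came to 143, 141 and 158 CPM per kb in the WT livers and to 173, 143 and 125 in the Het livers. Nr1i3 made up 68.7%, 70.6% and 75.0% of these sums in the WT livers and 76.8%, 74.3% and 70.3% in the Het livers. The sum was 1.94, 1.72 and 2.85 times the Rxra level in the WT livers and 2.40, 2.04 and 1.68 times in the Het livers, so it exceeded Rxra in every liver and the genotypes overlapped. These are RNA levels and do not give protein amounts.

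No receptor passed the test between genotypes. In edgeR's quasi-likelihood test, adjusted by Benjamini-Hochberg over every gene tested, 0 of the 8 tested receptors passed an adjusted p of 0.05 (adjusted p = 0.9998 for each), as did 0 of 12631 genes (0%). DESeq2 called 13 genes and limma-voom 0, none of them a receptor described here. Unadjusted p-values under 0.05 were found for 2 of the 8, Esr1 and Nr1i2, both with lower values in Het livers, against 4.33% of all genes in either direction, 2.21% with lower and 2.12% with higher values. The genotypes did not overlap for 2 of the 8, Nr1i2 (lower in Het) and Thra (higher in Het), against 8.99% of all genes, 4.28% lower and 4.72% higher in Het. For 7 of the 8 the 95% interval stayed inside a 1.5-fold change, against 71.1% of all genes, and inside 2-fold for all 8, against 90% of all genes. Higher and lower values were balanced, 4 against 4, with a median log2 fold change (log2 of Het over WT) of 0.01, beside 0.00088 over all genes.

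**Figure D2:**
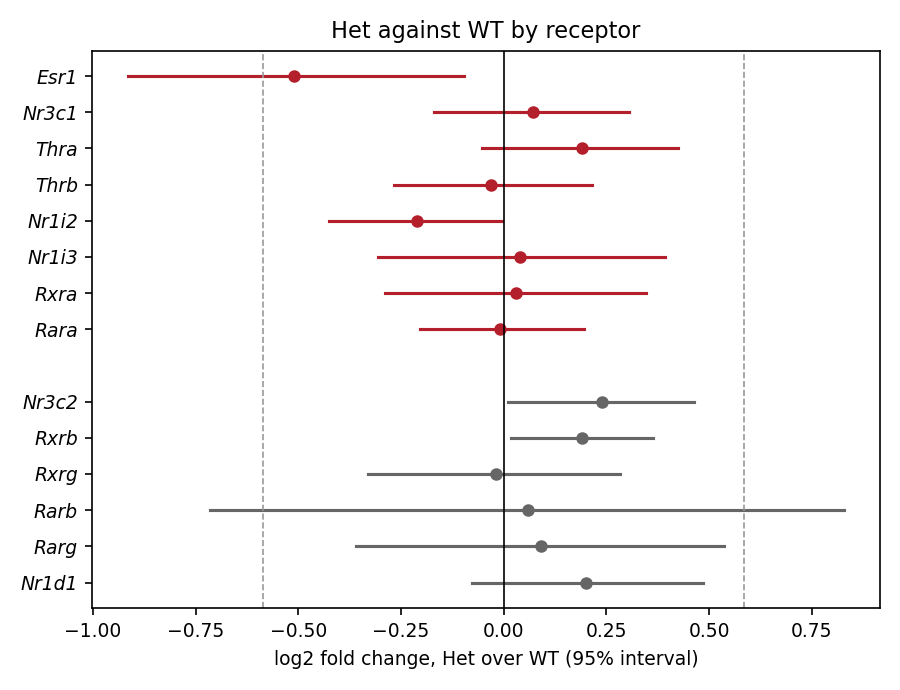
Log2 fold change, Het over WT, with its 95% interval for the 8 tested receptors (red) and for 6 related receptor genes (grey); dashed lines mark a 1.5-fold change. Only the interval of Esr1 among the 8 passes a dashed line, and its estimate is -0.51.

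Of the steroid receptors, Esr1 showed the widest difference between genotypes. It had 36.0, 37.2 and 22.8 CPM in the WT livers and 24.5, 21.9 and 21.3 CPM in the Het livers. WT replicates 1 and 2 stood above the other 4 livers, while WT replicate 3 lay inside the Het range. The log2 fold change came to -0.51 (SE 0.18, 95% interval -0.91 to -0.10), with an unadjusted p of 0.0213 in edgeR and an exact two-sided permutation p of 0.2, while 3 against 3 livers cannot give a p below 0.1. Without WT replicate 3 Esr1 passed in edgeR after Benjamini-Hochberg adjustment (log2 fold change -0.70, adjusted p = 0.0296), and without WT replicate 2 the log2 fold change was -0.38. Over all alternatives its adjusted p (edgeR, DESeq2 and limma-voom, Benjamini-Hochberg) ran from 0.0296 to 1. In liver tissue fewer cells of a type and less RNA per cell cannot be told apart.

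Values of Esr1 were set beside those of the acute-phase genes, which hepatocytes induce in inflammation. The acute-phase score, the mean over 22 genes of the log2 CPM after centring on the 6 livers, was 0.77, 1.63 and -0.90 in the WT livers and 0.50, -0.81 and -1.18 in the Het livers. The 3 livers with the highest scores were also the 3 with the most Esr1 RNA. Among them, Het replicate 1 had a score of 0.50 and 24.5 CPM of Esr1. WT replicate 3 had a score of -0.90 and 22.8 CPM of Esr1. Lower Het values were found for 21 of the 22 acute-phase genes (median log2 fold change -0.54), and 0 passed the edgeR test. Their summed level was 17553 to 49392 CPM in the WT group against 18768 to 28111 CPM in the Het group, and none was at 0 throughout. Fgb, the fibrinogen beta chain gene, had 4484 ± 1398 and 3537 ± 51.1 CPM (SD, n = 3) in WT and Het livers, the hemopexin gene Hpx 4318 ± 2228 and 2669.8 ± 812 CPM, and the serum amyloid gene Saa4 769 ± 303 and 431 ± 23.2 CPM. When that score entered the fit as a covariate, an alternative chosen after seeing the data, the log2 fold change of Esr1 was -0.24. The part of the acute-phase state in the Esr1 values was not tested.

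Nr3c1, the glucocorticoid receptor gene, was similar in both genotypes. It had 125, 120.0 and 102 CPM in the WT livers and 109, 129.8 and 125 CPM in the Het livers, with the lowest value in WT replicate 3. The log2 fold change came to 0.07 (SE 0.11, 95% interval -0.17 to 0.30). The log2 ratio of Nr3c1 to Esr1 counts was 1.80, 1.69 and 2.16 in the WT livers, against 2.15, 2.57 and 2.55 in the Het livers, with 1 Het value just below the highest WT value (exact two-sided permutation p = 0.2, and 0.4 after Benjamini-Hochberg adjustment over 4 ratios). Of the other steroid receptor genes, the mineralocorticoid receptor gene Nr3c2 had 21.3, 21.2 and 17.4 CPM in the WT group against 22.5, 23.0 and 25.1 CPM in the Het group (log2 fold change 0.24, SE 0.10, unadjusted p = 0.0417 in edgeR), so every Het value was above every WT value. The estrogen receptor beta gene Esr2 and the progesterone receptor gene Pgr had 0 counts in all 6 livers, which allows up to 0.136 to 0.154 CPM per library (3 counts, for counting error only).

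The thyroid hormone receptor genes differed in their pattern. Thra, the ubiquitous alpha receptor, had 6.94, 7.13 and 7.25 CPM in the WT livers and 8.27, 8.01 and 7.96 CPM in the Het livers. Every Het value was above every WT value, and the livers of a genotype lay close together, with a pooled SD of 0.03 (log2) against a median of 0.16 for 1591 genes of the same abundance. The log2 fold change came to 0.19 (SE 0.11, 95% interval -0.05 to 0.42), the unadjusted edgeR p was 0.112, and exact permutation gave a two-sided p of 0.1, the smallest possible. Counting error alone gives an SD of 0.115 (log2) per library and an SE of 0.094 for the fold change at these counts, so the observed spread was below counting noise. Leaving out each liver in turn gave log2 fold changes of 0.16 to 0.20.

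Thra rests on few reads and shares its locus. It had 141 to 174 counts per library, and 263 bases of its exons overlap those of Nr1d1 on the opposite strand, in the GENCODE M21 annotation, which is of another build than the files. Nr1d1, the clock repressor gene REV-ERB alpha, had 77.6, 95.02 and 69.0 CPM in the WT group against 93.2, 83.4 and 102 CPM in the Het group (log2 fold change 0.20, SE 0.13). The Nr1d1 values overlapped between genotypes, those of Thra did not, and the log2 fold change of Thra was 0.19. The counting strand was not given, so reads in the shared part cannot be assigned with certainty, and the part of this overlap in the Thra values was not tested.

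Thrb, the main thyroid hormone receptor of hepatocytes, was about as abundant in both genotypes. Its values were 51.8, 50.8 and 40.9 CPM in the WT livers and 43.5, 51.2 and 46.4 CPM in the Het livers, with WT replicate 3 lowest. The log2 fold change came to -0.03 (SE 0.11, 95% interval -0.27 to 0.21) and changed sign when single livers were left out. Per kilobase of exon, Thrb was at 6.46 ± 0.812 CPM in WT and 6.35 ± 0.525 in Het livers, against 1.54 ± 0.0345 and 1.75 ± 0.0371 for Thra. The log2 ratio of Thrb to Thra counts was 2.90, 2.83 and 2.49 in the WT group against 2.39, 2.67 and 2.54 in the Het group. The mean ratio differed by -0.21, which did not exceed the spread (exact two-sided permutation p = 0.3, and 0.4 after Benjamini-Hochberg adjustment over 4 ratios).

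Of the xenobiotic receptors, Nr1i2 had lower values in Het livers and Nr1i3 did not separate. Nr1i2, the PXR gene, had 83.6, 73.8 and 73.0 CPM in the WT livers and 72.9, 61.9 and 63.8 CPM in the Het livers. The lowest WT value and the highest Het value nearly touched. The fold was 0.862 with a 95% interval of 0.745 to 0.998 (log2 fold change -0.21, SE 0.09), the unadjusted edgeR p was 0.0469, and exact permutation gave a two-sided p of 0.1. Leaving out each liver in turn gave -0.29 to -0.15, and the acute-phase score as covariate gave -0.16.

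Nr1i3, the CAR gene, varied most within the Het livers. It had 434, 439.7 and 523 CPM in the WT livers and 585, 467 and 387 CPM in the Het livers, so the Het livers held both the highest and the lowest value. The log2 fold change came to 0.04 (SE 0.16, 95% interval -0.31 to 0.39), and it was -0.12 without Het replicate 1 and 0.18 without Het replicate 3. In the GENCODE M21 annotation 74.9% of the exon bases of Nr1i3 overlap those of Tomm40l, a gene of the mitochondrial import machinery on the opposite strand. Tomm40l, named for this overlap after its values were seen, had 10.6 ± 0.369 CPM in the WT group against 11.1 ± 0.530 CPM in the Het group, far below Nr1i3. The counting strand was not given, so reads in the shared part cannot be assigned with certainty to either gene. The part of this overlap in the Nr1i3 values, its level per kilobase included, was not tested. Per kilobase of coding sequence Nr1i3 was first of the 49 receptors, above Hnf4a, so the order of these genes turned with the length used. The log2 ratio of Nr1i3 to Nr1i2 counts was 2.38, 2.57 and 2.84 in the WT group against 3.0, 2.92 and 2.60 in the Het group (exact two-sided permutation p = 0.2, and 0.4 after Benjamini-Hochberg adjustment over 4 ratios).

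The retinoid receptors Rxra and Rara had the same mean level in both genotypes within their spread. Rxra had 404, 447 and 303 CPM in the WT livers and 393, 381 and 405 CPM in the Het livers. The WT livers held the highest and the lowest value, and the 3 Het livers lay between them. The log2 fold change came to 0.03 (SE 0.14, 95% interval -0.29 to 0.35), with -0.12 when WT replicate 3 was left out and 0.15 when WT replicate 2 was. Rara had 16.0, 18.2 and 16.8 CPM in the WT group against 16.98, 16.2 and 17.8 CPM in the Het group (log2 fold change -0.01, SE 0.09), with a pooled SD of 0.08 (log2) against a median of 0.12 for 2181 genes of the same abundance. The log2 ratio of Rara to Rxra counts was -4.65, -4.62 and -4.17 in the WT group against -4.53, -4.56 and -4.51 in the Het group (exact two-sided permutation p = 1.0).

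Their paralogues were less abundant. Rxrb, another retinoid X receptor, had 22.5, 23.9 and 24.6 CPM in the WT group against 27.4, 26.5 and 27.1 CPM in the Het group, without overlap (log2 fold change 0.19, SE 0.08, unadjusted p = 0.035 in edgeR). Rxrg had 5.72 ± 0.660 and 5.62 ± 0.308 CPM and Rarg 3.24 ± 0.801 and 3.44 ± 0.329 CPM in WT and Het livers. Rarb, which is itself induced by retinoic acid, had 3.08, 3.31 and 5.14 CPM in the WT group against 2.44, 3.64 and 5.91 CPM in the Het group. Neither Rxrg, Rarg nor Rarb separated the genotypes. Rxrb and Nr3c2 were the only 2 of the 30 other tested nuclear receptor genes with an unadjusted p under 0.05, both with higher values in Het livers. Over all genes 4.33% had such a p and 2.12% had it with higher values, so 2 of 30 is near the background, and 0 of the 30 passed the adjusted test. Their median log2 fold change was 0.05, with 19 higher and 11 lower. The 2 most abundant, Hnf4a and the bile acid receptor gene Nr1h4, had 584 ± 112 and 146.8 ± 2.75 CPM in the WT group against 568 ± 37.9 and 136 ± 12.5 CPM in the Het group.

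Vdr, the receptor of the active vitamin D hormone, was close to undetected. It had 0, 2 and 0 counts in the WT livers and 0, 3 and 0 counts in the Het livers. No value exceeded 3 counts, so no fold change is given. Its known expression in liver lies mainly outside hepatocytes, and stellate cell markers, 10 of 10 detected, summed to 206 to 289 CPM in the WT group against 258 to 324 CPM in the Het group. The sum of these markers was above the floor in every library, and Vdr was at or below it. The reason for the low Vdr counts was not tested.

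**Figure D3:**
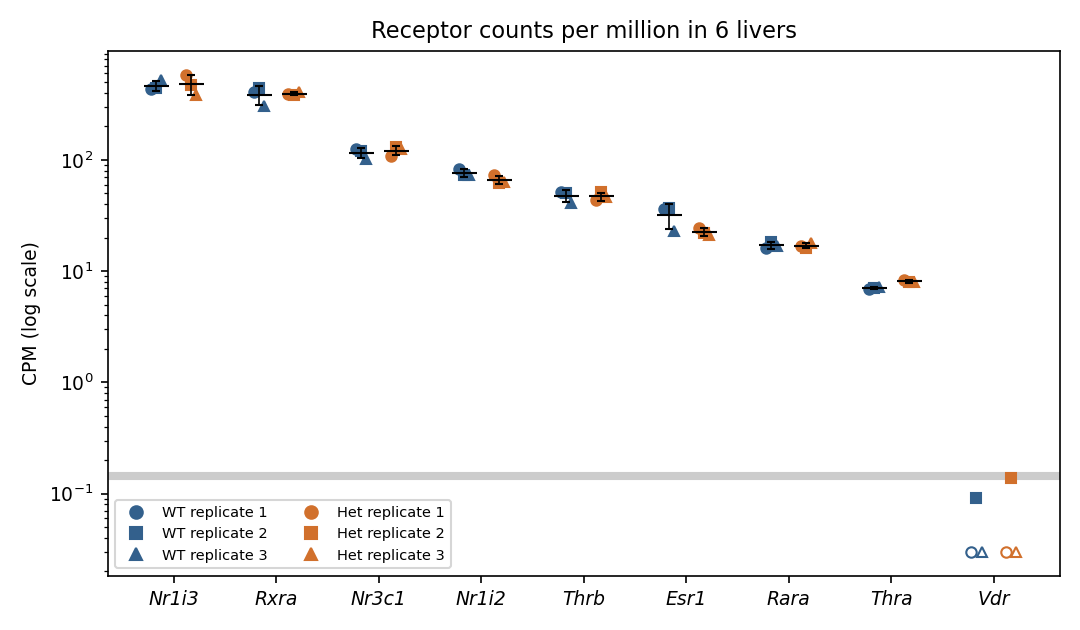
CPM of each receptor gene on a log scale in the 6 livers, with the mean and SD of each genotype (black) and open symbols at the bottom for 0 counts. The grey band is the range of the floor of 3 counts, 0.136 to 0.154 CPM; the WT and Het points overlap for 6 of the 8 tested genes, all but Nr1i2 and Thra.

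Single livers moved several receptors together. WT replicate 3 had the lowest Rxra, Nr3c1 and Thrb, at -0.35, -0.21 and -0.21 (log2) from the mean of the 6 livers, and also the lowest Hnf4a (457 CPM against 532 to 666 in the other livers) and Ncor1 (91.2 CPM against 112 to 134). It did not have the lowest Nr1i3, Nr1i2, Esr1, Thra or Rara. In the same library, the 4112 genes with the longest exons were at -0.066 and the 4115 with the shortest at 0.074 (median log2 deviation), the widest such split of the 6 libraries. Its Kupffer cell score was the lowest too, at -0.69, with Kupffer markers summing to 123 CPM against 138 to 242 CPM in the other livers. The part of length or of cell content in the receptor values was not tested. Within a genotype Esr1 varied more than 94.7% of genes of its abundance, with a pooled SD of 0.29 (log2) against a median of 0.11, and Nr1i3 (SD 0.24 against 0.14) and Rxra (0.21 against 0.15) also lay above their medians.

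**Figure D4:**
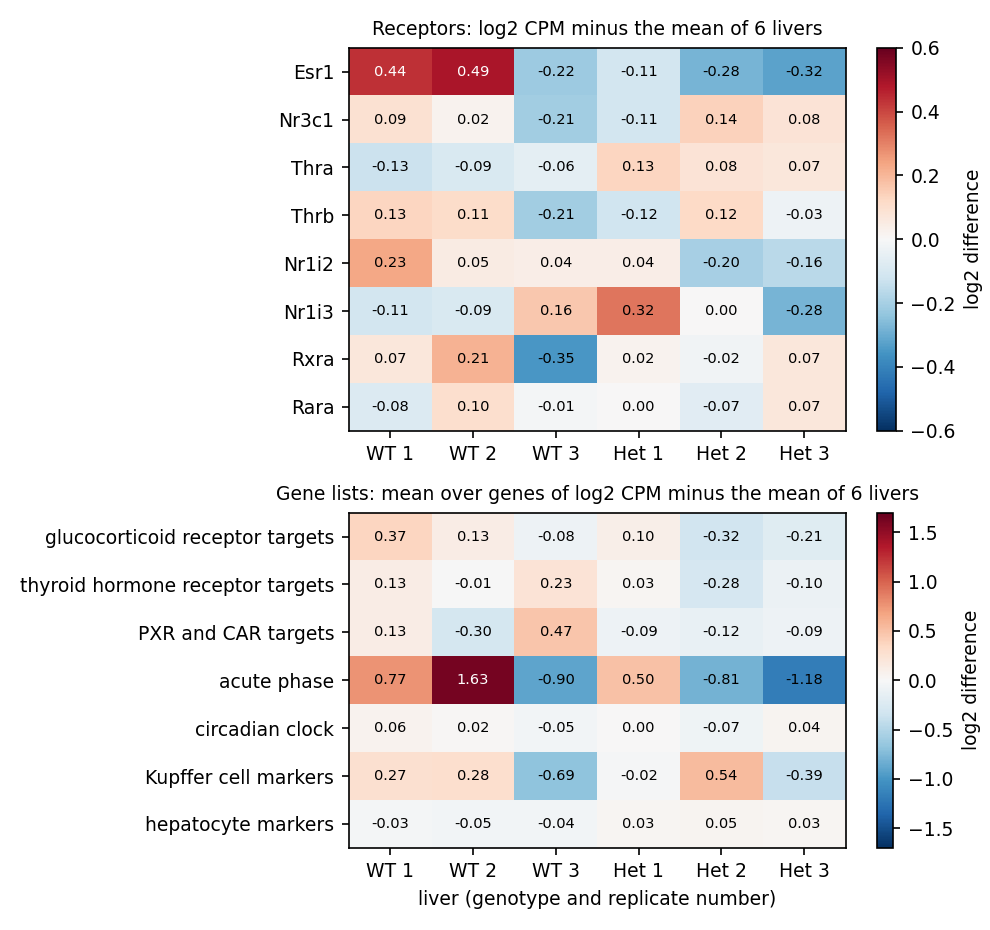
Log2 CPM of the 8 tested receptors minus the mean of the 6 livers (upper panel) and the mean of the same quantity over the genes of 7 lists (lower panel), by liver. Esr1 and the acute-phase list are high in WT replicates 1 and 2, and Rxra is lowest in WT replicate 3, at -0.35.

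The genes whose values were most like those of a receptor over the 6 livers were found by Pearson r of log2 CPM among 11561 genes, as a description. For Esr1 they were Tsr1 (r = 0.995) and Tbc1d20 (r = 0.994), for Nr3c1 Fam13b (0.994) and Tmtc3 (0.992), and for Rxra Nomo1 (0.998) and Sox6 (0.995). For Thra they were Naglu (0.990) and Slc19a2 (0.990), for Thrb Srrm2 (0.991) and Xpc (0.989), for Nr1i2 Prdx1 (0.988) and Rab11fip2 (0.988), for Nr1i3 Nob1 (0.984) and Rpl30 (0.982), and for Rara Ttc21b (0.988) and Ints4 (0.983). With 6 livers such values are common. Esr1 reached an absolute r of at least 0.9 with 4.38% and Rxra with 4.41% of genes, against 2.13% of all gene pairs. The points share the normalisation of each library. Among the 8 receptors the highest r was that of Nr3c1 and Thrb, at 0.89, and the lowest that of Esr1 and Thra, at -0.75.

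The genes that supply or remove the ligands showed no shared direction. Of 34 such genes 22 were tested, 11 higher and 11 lower in the Het group (median log2 fold change 0.00), and 0 passed. The most abundant were Gc, the plasma carrier of vitamin D, with 7400.5 ± 284 and 7080.4 ± 393 CPM, and Ttr, a carrier of thyroxine and of retinol-binding protein, with 4805 ± 845 and 5086 ± 16.5 CPM in WT and Het livers. Cyp2r1, a vitamin D 25-hydroxylase gene, had 15.7, 13.9 and 13.1 CPM in the WT group against 13.1, 10.8 and 12.4 CPM in the Het group (log2 fold change -0.24, SE 0.11, unadjusted p = 0.0603 in edgeR), the smallest p of the list. Cyp24a1, which inactivates the hormone and is a vitamin D receptor target, had 0 counts in all livers, as had Dio2, Crabp1 and Cyp19a1.

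Coregulators of the receptors and chaperones were likewise not called. Of 19 tested coregulator genes 11 had higher and 8 lower values (median 0.01, 0 passed). The corepressor gene Ncor1 had 118 ± 23.6 and 117 ± 4.73 CPM and the acetyltransferase gene Kat2b 114 ± 2.69 and 123 ± 2.58 CPM in WT and Het livers, and Kat2b had the smallest p of the list (unadjusted p = 0.186 in edgeR). Of 15 chaperone genes 9 had higher and 6 lower values (median 0.04, 0 passed). Hsp90ab1, an HSP90 gene, had 648 ± 14.0 CPM in the WT group against 677 ± 85.8 CPM in the Het group. Hsp90b1, whose HSP90 protein lies in the endoplasmic reticulum, had 769 ± 47.3 and 844 ± 194 CPM in WT and Het livers. Stip1, which links HSP70 to HSP90, had 67.2, 65.4 and 71.9 CPM in the WT group against 72.3, 84.7 and 79.4 CPM in the Het group (log2 fold change 0.21, SE 0.09, unadjusted p = 0.0378 in edgeR).

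Among the target genes, most members of 3 lists had lower values in Het livers, as had both tested vitamin D receptor targets, and no gene passed. Over all genes 49.7% had lower values. Of 16 glucocorticoid receptor targets 12 were lower (median log2 fold change -0.24). Tdo2, a tryptophan oxygenase gene, had 1867 ± 154 and 1938 ± 118 CPM and Pck1, a gluconeogenic enzyme gene, 2031 ± 281 and 1446 ± 551 CPM in WT and Het livers. Per1, a clock gene that glucocorticoids induce, had 46.1, 32.8 and 42.7 CPM in the WT group against 30.9, 24.4 and 30.9 CPM in the Het group, without overlap (-0.50, SE 0.14, unadjusted p = 0.00668 in edgeR). The list score overlapped between genotypes, at 0.37, 0.13 and -0.08 in WT and 0.10, -0.32 and -0.21 in Het livers.

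Of 11 tested thyroid hormone receptor targets 9 were lower (median -0.18), and 3, all lower, had an unadjusted p under 0.05 in edgeR, against 2.21% of all genes with lower values at that p. Thrsp, a lipogenic gene induced by thyroid hormone, had 709, 352 and 884 CPM in the WT group against 420, 172 and 369 CPM in the Het group, which overlapped. Me1, the malic enzyme gene, had 284, 221 and 299.9 CPM in the WT group against 195, 185 and 215 CPM in the Het group (-0.44, SE 0.13, unadjusted p = 0.0067 in edgeR), and Cpt1a, of fatty acid oxidation, 365 ± 44.7 and 359 ± 42.5 CPM. Thrsp and Me1 are also targets of lipogenic regulators, so a list of this kind does not measure the receptor alone.

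Of 20 tested PXR and CAR targets 15 were lower (median -0.16), with overlapping scores of 0.13, -0.30 and 0.47 in WT and -0.09, -0.12 and -0.09 in Het livers. Cyp3a11, the main PXR-induced cytochrome P450 gene, had 5410, 2999 and 6439 CPM in the WT group against 3011, 4951 and 5091 CPM in the Het group, which overlapped. Cyp2c29 had 2012 ± 465 CPM in the WT group against 1845 ± 459 CPM in the Het group. Cyp2b10, the usual reporter of CAR activity, was low, with 4.72, 2.09 and 6.17 CPM in the WT group against 2.73, 2.21 and 2.44 CPM in the Het group (-0.81, SE 0.36, unadjusted p = 0.055 in edgeR). Its WT values spanned the Het range, so the difference rested on WT replicates 1 and 3. No gene of the list had an unadjusted p under 0.05. Without Het replicate 1, Cyp2b9, named for this call after its values were seen, passed in edgeR after Benjamini-Hochberg adjustment (log2 fold change -2.20, adjusted p = 0.00012), against -1.04 (SE 0.74) with all livers.

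The remaining target lists were short. Of 7 tested retinoic acid receptor targets 4 were higher and 3 lower (median 0.01, 0 passed). Tgm2, a transglutaminase gene, had 109.7 ± 9.88 and 110.7 ± 2.46 CPM, Dhrs3, a retinal reductase gene, 92.1 ± 11.1 and 100.6 ± 4.86 CPM, and Lrat, which esterifies retinol in stellate cells, 19.2 ± 3.35 and 15.2 ± 3.58 CPM in WT and Het livers. Of 5 tested estrogen receptor targets 3 were higher and 2 lower (median 0.01, 0 passed). Igfbp4 had 1452 ± 136 and 1459 ± 12.2 CPM and Igf1 913 ± 102 and 939.7 ± 6.49 CPM in WT and Het livers. Ccnd1, the cyclin D1 gene, had 46.7, 40.0 and 41.5 CPM in the WT group against 33.3, 27.2 and 17.4 CPM in the Het group, without overlap (-0.72, SE 0.22, unadjusted p = 0.0134 in edgeR).

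Vitamin D receptor targets were mostly too low to test, with 2 of 7 tested and both lower in Het livers (median log2 fold change -0.63). Both had an unadjusted p under 0.05 in edgeR, against 2.21% of all genes with lower values at that p. Spp1, the osteopontin gene, had 28.1, 25.2 and 29.7 CPM in the WT group against 23.0, 23.8 and 24.9 CPM in the Het group. These did not overlap (unadjusted p = 0.0428 in edgeR). Slc34a2, a phosphate transporter gene, had 0.924 ± 0.417 and 0.442 ± 0.0957 CPM in WT and Het livers (unadjusted p = 0.0262 in edgeR), which overlapped. Spp1 is also a cholangiocyte marker, and both genes are read from livers in which Vdr itself was at or below the floor. Of 15 tested clock genes 5 were higher and 10 lower (median -0.02, 0 passed), and their scores ran from -0.07 to 0.06. Tef had 260.7 ± 19.6 and 260.5 ± 1.83 CPM and Nr1d2 138.8 ± 6.91 and 135 ± 1.51 CPM in WT and Het livers.

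Hepatocyte markers were by far the most abundant of the marker lists, and the summed levels of 2 lists, those of cholangiocytes and of pancreas, gut and kidney, did not overlap between genotypes. No marker passed the adjusted edgeR test, which does not show that cell content was alike. Hepatocyte markers, 8 of 8 tested, summed to 95932 ± 8197 CPM in the WT group against 101850.0 ± 10312 CPM in the Het group. Endothelial markers summed to 152 ± 23.4 and 149.6 ± 20.1 CPM and Kupffer cell markers to 188 ± 56.3 and 186 ± 52.4 CPM, both overlapping. Cholangiocyte markers, 5 of 6 tested, summed to 32.5, 29.6 and 33.6 CPM in the WT livers, all above the 26.9, 29.0 and 29.1 CPM of the Het livers, and Spp1 made up most of each sum. Lymphocyte and neutrophil markers were low, at 3.37 ± 0.490 and 3.36 ± 0.895 CPM, with Ly6g at 0, and the 3 erythroid markers found summed to 107 ± 16.8 and 82.4 ± 23.7 CPM. Markers of pancreas, gut and kidney, 2 of 10 tested, summed to 142, 121 and 156 CPM in the WT livers, all below the 169, 166 and 168 CPM of the Het livers, with Cpa1, Prss2, Cel, Lct and Slc12a1 at 0. The tested genes were Fabp2 (log2 fold change 0.33, unadjusted p = 0.00627 in edgeR) and Cela1 (0.14), named after their values were seen. Markers of fat and muscle summed to 0.141 ± 0.0878 and 0.0788 ± 0.0261 CPM, with Ckm at 0. The part of cell content in the receptor values was not tested.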

How the data were processed

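Poly(A) RNA from 6 frozen livers was sequenced. The deposited files hold raw counts per gene, not normalised. Per the submitters' processing notes, TopHat2 2.0.11, HTSeq 0.6.1, DESeq and the genome build mm9 were used; the annotation release and the counting strand are not given in the sources used here. Ensembl IDs were matched to symbols for 32919 of 37991 genes.

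The deposited counts were tested in edgeR 4.0.16 (R 4.3.3) with TMM normalisation, filterByExpr and a robust quasi-likelihood fit of Het against WT without covariates. P-values were adjusted by Benjamini-Hochberg over 12631 genes, with a threshold of 0.05. DESeq2 1.42.0 and limma 3.58.1 (voom) were alternatives. Levels per kilobase used GENCODE M21 exon lengths (GRCm38), a different build from the files, so only lengths and names were taken from it. Single ratios were tested by exact permutation. Any 2 libraries differed by more than sampling noise. Floors of 3 counts cover counting error only.

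The receptors and gene lists were chosen with earlier results of these data known. Named were the 9 receptors, Ing5, Nr1d1, 7 related receptors (1 more under the same rule is not reported here), and of each other list the 2 most abundant tested genes and the one with the smallest unadjusted p. For each receptor the 2 genes most like it were also named. The procedure was also run on simulated counts drawn independently for each gene, which hold no shifts shared by many genes of a liver. The outcome of that run is not given here.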

Additional observations from a re-analysis of the deposited data

How the results depend on the processing

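The count of genes past the threshold was 0 under most settings. It was 1 with no low-count filter and 13 with DESeq2 (9 higher, 4 lower in Het), and leaving out each liver in turn gave 0 to 17, with 17 without WT replicate 3 and 10 without Het replicate 1. The count of receptors ranged from 0 to 1 on leaving out a liver (Esr1, without WT replicate 3), as did that of acute-phase genes (0 to 1, Saa4, without WT replicate 3) and of PXR and CAR targets (0 to 1, Cyp2b9, without Het replicate 1). With 2 livers in a genotype, the spread was pooled with the other group. Of 49 named genes with a fold change, 27 kept their direction in all 16 alternatives, among them Esr1, Thra and Nr1i2.

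Per kilobase of coding sequence the levels were 440.1 for Nr1i3, 278 for Rxra, 55.3 for Nr1i2, 49.9 for Nr3c1, 27.8 for Thrb, 13.3 for Esr1, 10.9 for Rara, 4.76 for Thra and 0.0301 CPM for Vdr. The difference in the log2 ratio of Rara to Rxra ran from -0.139 to 0.104 on leaving out a liver.

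Several log2 fold changes reversed, those of Rarb, Cyp3a11, Cyp2c29 and Hsp90b1 among them. With the acute-phase score as covariate, chosen after seeing the data as was the newer quasi-likelihood fit, they were 0.043 for Thrb, 0.014 for Rara, -0.36 for Rarb, -0.014 for Rarg, 0.11 for Hnf4a, -0.033 for Ttr, 0.16 for Ncor1, -0.014 for Hsp90b1, -0.012 for Hsp90ab1, 0.12 for Cpt1a and -0.052 for Igfbp4. With limma-voom they were 0.0041 for Ncor1 and 0.00068 for Tef. On leaving out a liver the ranges were -0.015 to 0.138 for Nr3c1, -0.126 to 0.03 for Thrb, -0.12 to 0.176 for Nr1i3, -0.12 to 0.152 for Rxra, -0.051 to 0.047 for Rara, -0.116 to 0.0077 for Ing5, -0.33 to 0.317 for Rarb, -0.021 to 0.305 for Rarg, -0.121 to 0.037 for Rxrg and -0.19 to 0.063 for Hnf4a. They were -0.033 to 0.221 for Ttr, -0.175 to 0.075 for Ncor1, -0.025 to 0.157 for Hsp90ab1, -0.0043 to 0.11 for Tdo2, -0.125 to 0.068 for Cpt1a, -0.445 to 0.049 for Cyp3a11, -0.326 to 0.076 for Cyp2c29, -0.038 to 0.088 for Tgm2, -0.052 to 0.084 for Igfbp4, -0.014 to 0.132 for Igf1 and -0.049 to 0.058 for Tef. The cause was not tested.

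The labels state no pairing of the livers by replicate number. Same-numbered livers correlated at -0.03, -0.08 and 0.22 in their deviations from the genotype means, and not every liver correlated best with its own number. So few livers cannot exclude a pairing. With the replicate number as a block 0 genes passed, the log2 fold change of Esr1 was -0.48, and those of Ncor1 (0.0012) and Tef (0.0017) reversed. Depth limits Vdr, Esr2 and Pgr, and also Thra, where counting error alone gives an SE of 0.094. The median SE of a log2 fold change over all genes was 0.125.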
